A study of Homo sapiens with 8 samples.

Results

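The 40 genes described here form a list of interferon-stimulated genes, chosen by gene symbol for their known induction by type I interferon. All 40 were found among the 18656 symbols of the deposited expression table. Of the 40, 28 reached 1 TPM (a length-normalised share of the transcripts in a library) in at least 2 of the 8 libraries and could be tested, and 12 did not. The libraries came from SW480, an established human colorectal adenocarcinoma line, and RNA was sequenced after removal of ribosomal RNA. Cells of the 0 h group (2 libraries) had a negative-control siRNA, and those of the 24, 48 and 72 h groups (2 libraries each) an siRNA against TCF7L2, a transcription factor through which beta-catenin acts. The TCF7L2 siRNA was delivered with a lipid reagent. The control is labelled 0 h only and an untransfected group was not analysed here, so for each comparison with 0 h the effects of transfected RNA, of TCF7L2 loss and of culture time cannot be told apart.

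Type I interferons are secreted when a cell senses foreign or misplaced nucleic acid, including double-stranded RNA. They bind the receptor IFNAR1/IFNAR2, whose kinases JAK1 and TYK2 phosphorylate STAT proteins such as STAT2; these join IRF9 and bind the interferon-stimulated response element in the promoters of target genes. Many targets are themselves RNA sensors or restrict viruses at entry, translation or assembly, and some, such as STAT2, IRF9 and IRF7, strengthen the pathway. Short transfected RNA can set off the same response through RIG-I, MDA5, PKR or Toll-like receptors, and tumour lines differ in how much of it they keep.

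Letters that match the element's core lie in the promoters of many listed genes. The core, GAAANNGAAA on either strand, was searched in RefSeq promoter windows (GRCh38.p14) that run from 250 bases before to 50 after a gene's start. Windows were found for 32 of the 40 genes, 44 windows in all because some genes have several starts. The core was present in 25 of the 44 windows (56.8%), against 3.57% of all 35116 windows of the same length, and 21 of the 32 genes had it. The longer form GAAANNGAAACT, which contains the core, was in 38.6% and 0.273%, and the STAT dimer element TTCNNNGAA in 25% and 7.66%. The stretches printed next hold every core match in 1 window of each of 10 genes, with the matches in capitals, 15 bases on each side, and the gene's own strand written 5′ to 3′. They were chosen to set genes that were higher at 72 h beside genes that were not or that stayed under the level tested.
ISG20, chr15:88638932-88638971, plus strand: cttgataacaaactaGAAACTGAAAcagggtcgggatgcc
IFIT3, chr10:89327826-89327899, plus strand: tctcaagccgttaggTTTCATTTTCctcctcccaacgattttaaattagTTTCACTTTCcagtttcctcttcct
IFITM3, chr11:320871-320927, minus strand: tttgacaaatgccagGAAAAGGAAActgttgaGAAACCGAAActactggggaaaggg
MX1, chr21:41420554-41420593, plus strand: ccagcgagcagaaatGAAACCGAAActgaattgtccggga
PARP14, chr3:122680795-122680834, plus strand: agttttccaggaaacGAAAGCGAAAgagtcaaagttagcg
SAMD9, chr7:93118091-93118130, minus strand: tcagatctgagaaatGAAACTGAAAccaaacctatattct
IFIT1, chr10:89392492-89392544, plus strand: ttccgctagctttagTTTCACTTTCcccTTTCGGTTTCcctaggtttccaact
ISG15, chr1:1013369-1013414, plus strand: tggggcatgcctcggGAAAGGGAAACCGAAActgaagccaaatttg
IFI6, chr1:27672261-27672363, minus strand: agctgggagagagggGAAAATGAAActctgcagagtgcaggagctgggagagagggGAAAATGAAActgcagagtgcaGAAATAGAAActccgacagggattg
EIF2AK2, chr2:37156962-37157001, minus strand: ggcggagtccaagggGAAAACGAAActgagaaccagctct
The first 6 belong to genes called higher at 72 h, IFIT1 stayed under the level tested, and ISG15, IFI6 and EIF2AK2 were not called. In IFIT1 and IFIT3 the matches lie on the opposite strand and appear as TTTCNNTTTC, and in ISG15 the pair overlap. The core was in 9 of the 13 genes with a window that were higher at 72 h, 8 of the 9 tested and not called, 4 of the 8 not tested, and 0 of the 2 that were lower. A match is a run of letters and was not tested as a binding site.

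Depth cannot be read from TPM, so no counting error is attached to a level, and errors are those between the 2 libraries of a group. The labels do not say whether replicates were separate cultures, so p-values measure only how far these libraries spread, possibly for technical reasons. The listed TPM summed to 352456 in the second 72 h library and to between 448107 and 485602 in the other 7, and the median gene of that library stood at 0.804 of its average level. Levels are given as deposited, and log2 changes, ± standard error (SE), are of log2(scaled TPM + 1) after each library was divided by its median ratio to the average profile; they understate changes of low genes. Without that scaling the median of all genes moved by -0.19 at 72 h and -0.09 at 24 h. Called means a limma adjusted p (Benjamini-Hochberg over 11894 genes) under 0.05. The epithelial markers were high, with KRT18 at 1004 to 1485 TPM, EPCAM at 428 to 599 and VIL1 at 129 to 193, and the intestinal factor CDX2 had 4.42 to 9.56 TPM over the 8 libraries. TCF7L2 had 6.86 and 7.47 TPM in the 0 h pair, 5.82 and 5.05 in the 24 h pair, 4.92 and 4.07 in the 48 h pair and 4.07 and 3.53 in the 72 h pair. The log2 changes of TCF7L2 were -0.26 ± 0.11 (24 h, limma adjusted p = 0.288), -0.56 ± 0.11 (48 h, 0.00725) and -0.58 ± 0.11 (72 h, 0.00197). Leaving out the second control library ended the call made at 48 h (adjusted p = 0.0532), as did leaving out the second 48 h library (0.0573).

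SW480 cells expressed the interferon genes at low to moderate levels in every group. No listed gene passed 42.8 TPM, 7 of the 40 had a mean of 10 TPM or more over the libraries, 23 were at 1 TPM or more in all 8 libraries, and 10 in none. The highest were ADAR, the double-stranded RNA editing enzyme (29.1 to 42.8 TPM), and IFITM2, a membrane protein that blocks virus entry (25.1 to 40.9). EIF2AK2, which encodes the RNA-activated kinase PKR, had 17.2 to 22.7 TPM. ISG15, a ubiquitin-like protein and a classic marker of the response, had 9.87 to 17.1. Several genes known for strong induction were close to 0. RSAD2, which encodes viperin, did not pass 0.3 TPM, IFIT1, which binds foreign RNA caps, 0.46, and IFI44L 0.09. IFI44 was listed at 0 in all 4 libraries of the 0 and 24 h groups, and IFI44L at 0 in both control libraries. The other genes outside the filter were OAS2 (highest 0.75 TPM), OASL (0.53), IFIT2 (0.59), TRIM22 (0.17), SAMD9L (0.49), XAF1 (0.73), IFI35 (1.38) and SP110 (1.43); the last 2 reached 1 TPM in the first 72 h library alone. IFIT3 and IFITM1 passed the filter through their 48 and 72 h libraries only, so that filter itself favoured a difference in them.

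**Figure D1:**
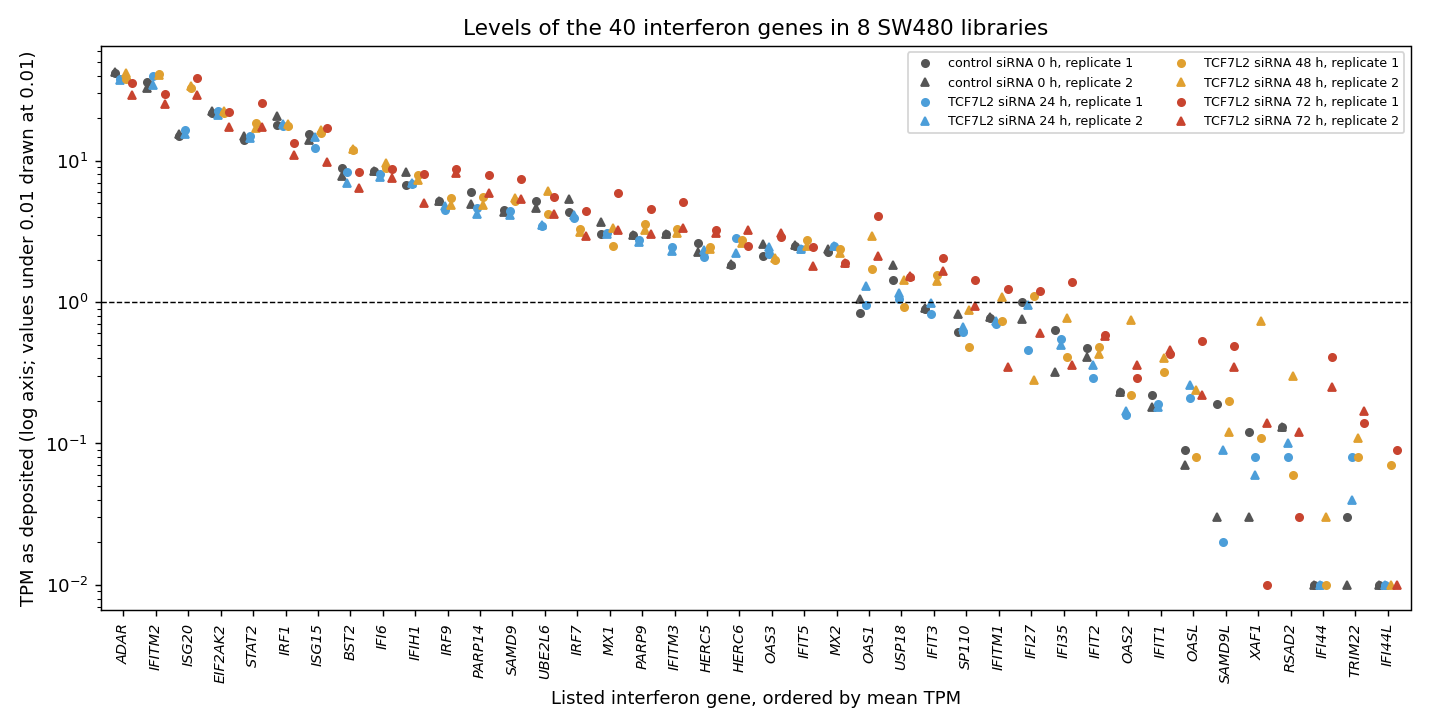
TPM as deposited (log axis) of the 40 interferon genes, ordered by mean; colour gives the group, and circles and triangles the first and second library. The dashed line marks 1 TPM, and values under 0.01, zeros included, are drawn at 0.01; the genes run from ADAR at up to 42.8 TPM down to IFI44L at no more than 0.09.

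At 24 h the interferon genes were not called in either direction. Of the 28 tested, 0 passed limma's test, where 1.08% of all 11894 genes did (0.647% higher and 0.437% lower). At an unadjusted p under 0.05 there were 3, against 1961 of all genes, and limma was the only tool run. These were ISG20 (0.17 ± 0.06, adjusted p = 0.201), IFITM2 (0.19 ± 0.08, adjusted p = 0.259) and UBE2L6, the conjugating enzyme for ISG15 (-0.32 ± 0.14, adjusted p = 0.285). The 95% interval of the log2 change stayed under 1 in all 28, the highest upper bound being 0.75 in HERC6. A change of 1 is a 2-fold rise of scaled TPM + 1, and a larger rise of TPM itself in low genes. For genes of a few TPM, such as HERC6, these intervals therefore do not bound the rise of TPM at 2-fold. ISG15 itself had 15.5 and 13.99 TPM at 0 h and 12.3 and 14.7 at 24 h, and the groups overlapped. Its change was -0.03 ± 0.13 with an interval of -0.32 to 0.27. MX1, a dynamin-like GTPase that traps viral particles, was at 3.03 and 3.68 TPM (0 h) and 3.07 and 3.05 TPM (24 h), a change of -0.02 ± 0.16 with an interval of -0.37 to 0.33. The median change of the 28 genes was -0.02, and that of all genes 0.00.

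Interferon itself was barely detected at any time. Of 22 ligand genes considered, 21 were listed, and none reached 1 TPM in a library. The sum over the ligands was 0.06 TPM in each control library, 0 and 0.14 in the 24 h libraries, 0.2 and 0.29 in those of 48 h, and 0.2 and 0.08 in those of 72 h. IFNB1, the interferon that most cells make first, was listed above 0 in the first 48 h library alone (0.07 TPM), and IFNL1, a type III interferon of epithelia, did not pass 0.08. With the read depth unknown, these values do not separate very low transcription from none. The receptor chains were present, IFNAR1 at 10.6 to 16.1 TPM and IFNAR2 at 4.16 to 6.36, and neither was called at any time. The kinases JAK1 (17.6 to 25.1 TPM) and TYK2 (46.6 to 73.2) were present too. JAK1 was not called at 24, 48 or 72 h, while TYK2 was lower at 48 h (-0.35 ± 0.05, adjusted p = 0.00248) and higher at 72 h (0.26 ± 0.05, 0.00322). Neither TYK2 call held on the TPM as deposited (adjusted p = 0.185 and 0.853).

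At 48 h, 6 of the 28 tested genes were higher (21.4%) and 1 was lower (3.57%), where 12.0% of all genes were higher and 11.5% lower, 23.5% in all. The 6 were ISG20, OAS1, BST2, IFIT3, STAT2 and IFITM2, and the lower one was IRF7. IFIT3 passed the filter only through its 48 and 72 h libraries, which favoured a call. In bulk RNA a change in a share of the cells and a change in RNA per cell cannot be told apart. ISG20, an RNA exonuclease that degrades viral RNA, had 14.9 and 15.5 TPM in the 0 h pair, 16.6 and 15.5 in the 24 h pair, 32.96 and 33.9 in the 48 h pair and 38.4 and 28.98 in the 72 h pair. Both 48 h libraries lay well above the 4 of the earlier groups, and the log2 change was 1.09 ± 0.06 (limma adjusted p = 1.28e-05). BST2, or tetherin, holds budding virions at the cell surface. It had 8.83 and 7.83 TPM in the 0 h pair, 8.3 and 6.91 in the 24 h pair, 11.8 and 12.2 in the 48 h pair and 8.34 and 6.39 in the 72 h pair. Both 48 h libraries were above the other 6. Its 48 h change was 0.49 ± 0.10 (adjusted p = 0.00718), and at 72 h it was 0.03 ± 0.10 (adjusted p = 0.822) with overlapping libraries. Without the second control library the 48 h call of BST2 was lost (adjusted p = 0.0567).

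IRF7, the factor that amplifies interferon transcription, moved the other way at 48 h. It had 4.37 and 5.38 TPM in the 0 h pair, 3.95 and 4.12 in the 24 h pair, 3.27 and 3.16 in the 48 h pair and 4.43 and 2.96 in the 72 h pair. The 48 h libraries were the lowest of the first 3 groups and the change was -0.46 ± 0.11 (adjusted p = 0.0179), while at 72 h it was -0.16 ± 0.11 (adjusted p = 0.258). The IRF7 call was lost without the second control library (adjusted p = 0.125), without the first or second 48 h library (0.0633 and 0.0877), and on the TPM as deposited (0.0558). IFITM2 had 36.1 and 32.7 TPM in the 0 h pair, 39.5 and 34.3 in the 24 h pair, 40.9 and 40.7 in the 48 h pair and 29.6 and 25.1 in the 72 h pair. It was above the control at 48 h (0.25 ± 0.08, adjusted p = 0.0481) and not called at 72 h (-0.11 ± 0.08, adjusted p = 0.28). The IFITM2 call did not hold without any 1 of the control or 48 h libraries (adjusted p from 0.0601 to 0.254) or on the TPM as deposited (0.432), and the replicate block gave 0.0549. The IFITM genes are close copies, so reads may have been split between them and their values are uncertain. Of the 7 genes called at 48 h, 1 was called without the second control library, 3 without the first, and 3 and 2 without the first and second 48 h library.

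**Figure D2:**
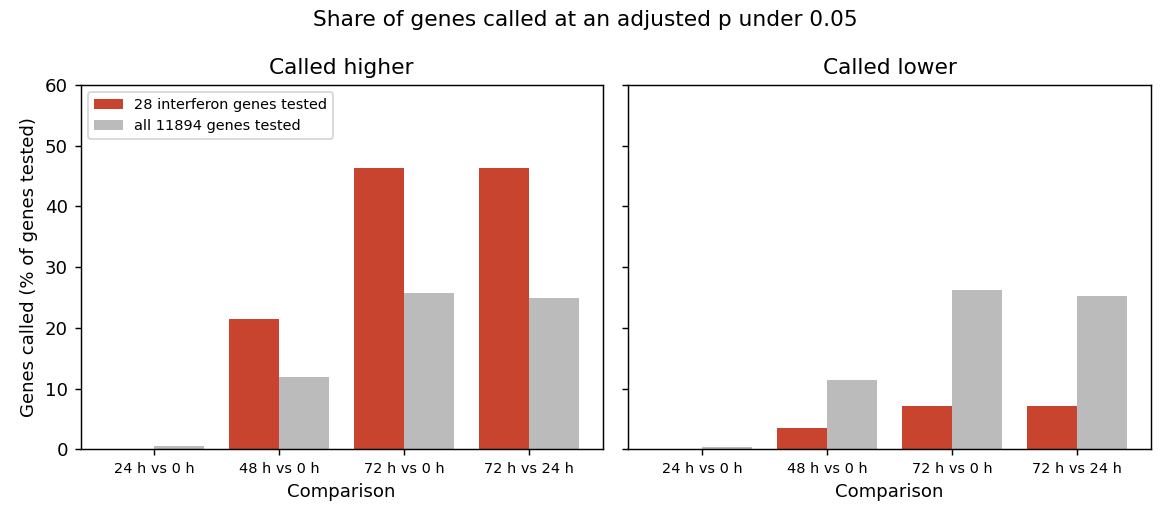
Percent of genes called higher (left) and lower (right) in each comparison, for the 28 interferon genes tested (red) and for all 11894 genes tested (grey). At 72 h against 0 h the red bar is 46.4% among higher genes and 7.14% among lower ones, beside 25.8% and 26.2% of all genes.

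At 72 h, 13 of the 28 tested genes were higher (46.4%) and 2 were lower (7.14%). Of all genes 25.8% were higher and 26.2% lower, 52.0% in all, so the share of the interferon genes called in either direction (53.6%) was near that of all genes, and the direction is where the counts differed. Their median log2 change was 0.16 beside 0.00 for all genes. On the TPM as deposited 7 were higher and 2 lower, and the medians were -0.01 and -0.19, with 1253 of all genes higher (10.5%) and 3715 lower (31.2%; 25.2% of calls higher, against 49.6% after scaling). Each of those 7 and 2 was also called after scaling. Leaving out single libraries gave 11 to 15 calls among the 28. The calls of ISG20, OAS1, IRF9, STAT2, IFIT3, SAMD9 and IRF1 held in every alternative in which they could be fitted.

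Among the 28 the largest change of log2(scaled TPM + 1) was in ISG20. After scaling its 72 h libraries were at 37.1 and 36.02 TPM, against 14.1 and 14.5 in the control, so the spread of the deposited 72 h values narrowed. Its log2 change was 1.30 ± 0.06 (limma adjusted p = 3.48e-07), a rise of over 2-fold. OAS1, one of the oligoadenylate synthetases that double-stranded RNA activates, came next on that scale. In proportion it rose more, from scaled levels of 0.793 and 0.983 TPM at 0 h to 3.95 and 2.65 at 72 h. As deposited OAS1 had 0.84 and 1.05 TPM in the 0 h pair, 0.96 and 1.29 in the 24 h pair, 1.72 and 2.92 in the 48 h pair and 4.09 and 2.13 in the 72 h pair. All 4 libraries of 48 and 72 h were above all 4 earlier ones, and the log2 changes were 0.74 ± 0.20 (48 h, adjusted p = 0.0248) and 1.17 ± 0.20 (72 h, 0.000868). The 48 h call was lost without the first or second control library (adjusted p = 0.127 and 0.0713) or the second 48 h library (0.161). OAS3, the longest enzyme of the family, had 2.12 and 2.58 TPM in the 0 h pair, 2.18 and 2.46 in the 24 h pair, 1.99 and 2.05 in the 48 h pair and 2.91 and 3.08 in the 72 h pair. Its change at 72 h was 0.42 ± 0.14 (adjusted p = 0.0264), lost without the first control library (0.154), without the second 72 h library (0.178) and on the TPM as deposited (0.218).

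Both dedicated partners of the interferon transcription complex were higher at 72 h. IRF9, its DNA-binding subunit, had 5.18 and 5.17 TPM in the 0 h pair, 4.51 and 4.75 in the 24 h pair, 5.44 and 4.83 in the 48 h pair and 8.77 and 8.2 in the 72 h pair. It was not called at 24 or 48 h, and both 72 h libraries stood above the other 6 (0.81 ± 0.11, adjusted p = 0.000208). STAT2 had 13.9 and 15.03 TPM in the 0 h pair, 14.9 and 14.4 in the 24 h pair, 18.6 and 17 in the 48 h pair and 25.7 and 17.3 in the 72 h pair. Its changes were 0.29 ± 0.09 at 48 h (adjusted p = 0.0382) and 0.72 ± 0.09 at 72 h (0.000109). The 48 h call of STAT2 was lost without any 1 of the control, 24 h or 48 h libraries (adjusted p from 0.0539 to 0.207) and on the TPM as deposited (0.338). IRF1, a factor induced by interferon gamma and by NF-kB, went the other way. It had 17.8 and 20.7 TPM in the 0 h pair, 17.6 and 18.2 in the 24 h pair, 17.5 and 18.1 in the 48 h pair and 13.3 and 10.9 in the 72 h pair. Both 72 h libraries were below the other 6, with a change of -0.43 ± 0.08 (adjusted p = 0.00168).

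**Figure D3:**
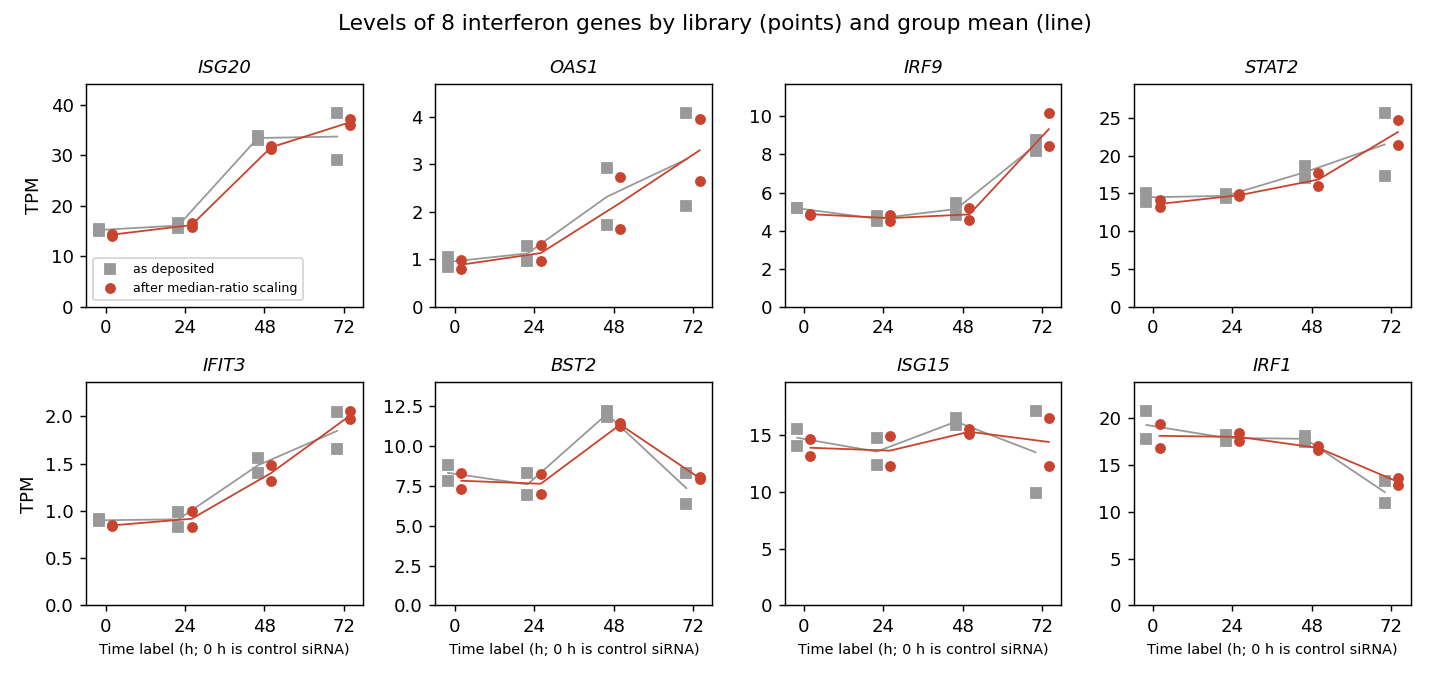
TPM of 8 interferon genes by time label, as deposited (grey squares) and after median-ratio scaling (red circles), 1 point per library, with lines through the group means. ISG20, OAS1, STAT2 and IFIT3 were higher at 48 and 72 h, IRF9 at 72 h and BST2 at 48 h, ISG15 was not called, and IRF1 was lower at 72 h.

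Among the antiviral effectors, IFIT3, which steadies IFIT1 on viral RNA, had 0.89 and 0.91 TPM in the 0 h pair, 0.83 and 0.99 in the 24 h pair, 1.56 and 1.4 in the 48 h pair and 2.04 and 1.65 in the 72 h pair. The 48 and 72 h libraries were all above the earlier ones, with changes of 0.38 ± 0.11 at 48 h (adjusted p = 0.0394) and 0.71 ± 0.11 at 72 h (0.00068). The 48 h call was lost without any 1 of the control, 24 h or 48 h libraries (adjusted p from 0.0537 to 0.168) and on the TPM as deposited (0.182), and the replicate block gave 0.0529. IFIT5, another member of the family, was not called (2.49 and 2.53 TPM at 0 h, 2.46 and 1.8 at 72 h, change -0.02 ± 0.10). SAMD9, a restriction factor of poxviruses, had 4.5 and 4.37 TPM in the 0 h pair, 4.38 and 4.11 in the 24 h pair, 5.17 and 5.43 in the 48 h pair and 7.41 and 5.33 in the 72 h pair. Its 72 h libraries were above the control, at 0.61 ± 0.09 (adjusted p = 0.000404). IFITM3 had 3.04 and 3.02 TPM in the 0 h pair, 2.47 and 2.31 in the 24 h pair, 3.31 and 3.06 in the 48 h pair and 5.09 and 3.32 in the 72 h pair, and its change was 0.52 ± 0.11 (adjusted p = 0.00303), not called on the TPM as deposited (0.0827). MX1 had 3.03 and 3.68 TPM in the 0 h pair, 3.07 and 3.05 in the 24 h pair, 2.5 and 3.33 in the 48 h pair and 5.92 and 3.24 in the 72 h pair. The second 72 h library lay among the control values as deposited, and after scaling the 72 h libraries were at 5.71 and 4.03 TPM against 2.86 and 3.44. The MX1 change of 0.49 ± 0.16 (adjusted p = 0.0253) was lost without the first control library (adjusted p = 0.145), without the first 72 h library (0.169, at a change of 0.28) and on the TPM as deposited (0.114).

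PARP9 and PARP14, partner ADP-ribosyltransferases that modulate STAT signalling, were both higher at 72 h. PARP9 had 3 and 3 TPM in the 0 h pair, 2.75 and 2.67 in the 24 h pair, 3.56 and 3.22 in the 48 h pair and 4.53 and 3.03 in the 72 h pair, with a change of 0.41 ± 0.11 (adjusted p = 0.00941). PARP14 had 6 and 4.91 TPM in the 0 h pair, 4.6 and 4.22 in the 24 h pair, 5.52 and 4.86 in the 48 h pair and 7.89 and 5.92 in the 72 h pair, with a change of 0.47 ± 0.11 (0.00559). The second 72 h library of PARP14 lay among the control values as deposited and above them after scaling. PARP9 was not called without the first 72 h library (adjusted p = 0.0575), PARP14 without the second control library (0.051), and neither on the TPM as deposited (0.25 and 0.153).

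Among the genes grouped here with ISG15, HERC5 and HERC6 were higher at 72 h and ISG15 itself was not called. HERC5, the main ISG15 ligase, had 2.63 and 2.25 TPM in the 0 h pair, 2.08 and 2.32 in the 24 h pair, 2.44 and 2.36 in the 48 h pair and 3.25 and 3.09 in the 72 h pair. HERC6, its relative, had 1.82 and 1.86 TPM in the 0 h pair, 2.83 and 2.21 in the 24 h pair, 2.75 and 2.62 in the 48 h pair and 2.48 and 3.24 in the 72 h pair. The 72 h libraries of each were above the control ones. Their changes at 72 h were 0.44 ± 0.12 (adjusted p = 0.0117) and 0.60 ± 0.17 (0.016). HERC5 lost its call without the second control library (adjusted p = 0.0854), without the second 72 h library (0.0784) and on the TPM as deposited (0.176). HERC6 lost it without the first or second control library (0.0631 and 0.0598) or the second 72 h library (0.104, at a change of 0.32). At 48 h HERC6 was not called (0.37 ± 0.17, adjusted p = 0.147), and it was without the first or second 72 h library (0.042 and 0.0433). Against 24 h it was called at 72 h without the first 72 h library alone (0.0166). ISG15 had 17.1 and 9.87 TPM at 72 h, on both sides of the control, and a change of 0.04 ± 0.13 (adjusted p = 0.832, 95% interval -0.26 to 0.33). USP18, the protease that removes ISG15 and restrains the receptor, had 1.44 and 1.83 TPM at 0 h and 1.51 and 1.54 at 72 h (0.08 ± 0.15, interval -0.26 to 0.42). UBE2L6 was not called against 0 h at any time (0.17 ± 0.14 at 72 h, adjusted p = 0.343).

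Of the genes for RNA sensors and RNA enzymes tested, IFIH1 and EIF2AK2 were not called at 72 h, and OAS1, OAS3 and ADAR were. IFIH1, which encodes the sensor MDA5, had 6.76 and 8.33 TPM at 0 h and 8.05 and 4.99 at 72 h (-0.02 ± 0.12, interval -0.29 to 0.25). EIF2AK2 had 21.7 and 22.5 TPM at 0 h and 21.98 and 17.2 at 72 h (0.03 ± 0.06, interval -0.10 to 0.17). ADAR had 41.7 and 42.8 TPM in the 0 h pair, 38.1 and 37.1 in the 24 h pair, 37.8 and 41.8 in the 48 h pair and 35.2 and 29.1 in the 72 h pair. It was the other gene called lower at 72 h, by a small amount (-0.17 ± 0.06, adjusted p = 0.0396). The ADAR call was lost without the first or second control library (adjusted p = 0.0978 and 0.148), either 24 h library (0.0546 and 0.0539) or the first 72 h library (0.18). The remaining genes not called at 72 h were IFI6 (0.15 ± 0.08), IFI27 (0.09 ± 0.23), IFITM1 (0.03 ± 0.19) and MX2 (-0.05 ± 0.11). In all 13 that were not called the 95% interval of the log2 change lay between -1 and 1, and the highest upper bound was 0.62, in IFI27.

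**Figure D4:**
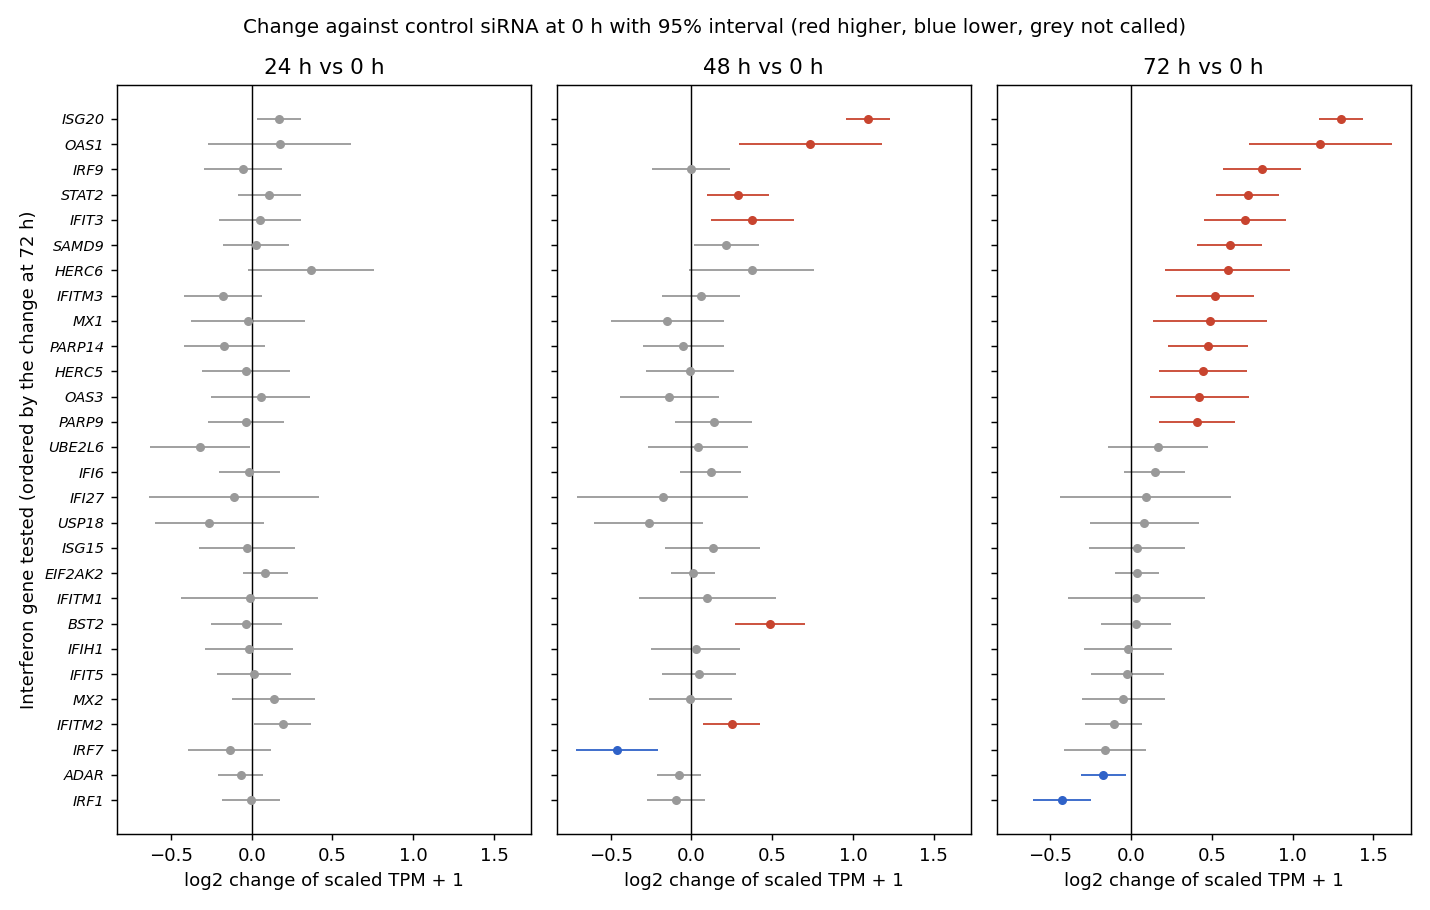
Log2 change of scaled TPM + 1 against the control at 24, 48 and 72 h for the 28 interferon genes tested, with 95% intervals; red points were called higher, blue lower and grey not called at an adjusted p under 0.05. At 24 h all points are grey, at 48 h 6 are red and 1 is blue, and at 72 h 13 are red and 2 are blue.

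The 12 interferon genes under the filter were also fitted with no filter on low values. At 72 h against 0 h, 7 of the 12 were called higher and 0 lower, where 17.9% of all 17894 genes in that fit were higher. IFI44, a gene known for strong induction by interferon, was listed at 0 in the control and 24 h libraries. It had 0 and 0.03 TPM at 48 h and 0.41 and 0.25 TPM at 72 h (limma adjusted p = 0.000305, with no fold given against 0). IFI44 entered this fit only through its 48 and 72 h libraries, which favoured a call. Its zeros have no spread, so that p-value rests partly on values at the floor. SAMD9L, a relative of SAMD9, had 0.19 and 0.03 TPM at 0 h and 0.49 and 0.35 at 72 h (0.39 ± 0.07, limma adjusted p = 0.00645). IFIT1 had 0.22 and 0.18 TPM at 0 h and 0.43 and 0.46 at 72 h (0.32 ± 0.06, adjusted p = 0.00651), and TRIM22 had 0.03 and 0 TPM at 0 h and 0.14 and 0.17 at 72 h (0.21 ± 0.04, 0.00941). OASL, SP110 and IFIT2 were the other 3 called, at adjusted p of 0.022, 0.0353 and 0.0456. At 24 and 48 h, 0 of the 12 were called. All these levels but that of SP110 are under 1 TPM, the read depth behind them is unknown, and RSAD2, OAS2, XAF1, IFI35 and IFI44L were not called.

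Because the control is labelled 0 h, the 72 and 24 h groups, which had the same siRNA, were also compared. TCF7L2 itself was called lower at 72 h than at 24 h (log2 change -0.32). That call was also made on the TPM as deposited and was lost with no filter. The extent of TCF7L2 loss and culture time therefore cannot be told apart in this comparison either. Of the 28 genes 13 were higher at 72 h than at 24 h and 2 were lower, beside 24.9% and 25.2% of all genes (50.1% in all). The 13 include IFIT3, which passed the filter only through its 48 and 72 h libraries. This comparison shares the 72 h libraries with the one against 0 h and is not a second measurement of them. IRF9 (0.86 ± 0.11), STAT2 (0.61 ± 0.09), OAS1 (1.00 ± 0.20) and ISG20 (1.13 ± 0.06) were among the higher genes. UBE2L6, with 5.21 and 4.65 TPM in the 0 h pair, 3.44 and 3.54 in the 24 h pair, 4.18 and 6.1 in the 48 h pair and 5.57 and 4.22 in the 72 h pair, was higher here (0.48 ± 0.14, adjusted p = 0.0156), and not without either 24 h library (0.0721 and 0.0543) or the first 72 h library (0.0528). IFITM2 was lower (-0.30 ± 0.08, adjusted p = 0.0109), a call lost without the first 24 h library (0.0863) or the first 72 h library (0.0653), and IRF1 was the other lower gene (-0.42 ± 0.08). Single libraries decided 3 further calls of this comparison. OAS3 (0.36 ± 0.14, adjusted p = 0.0489) was lost without any 1 library except the first 72 h one (from 0.0572 to 0.298). MX1 (0.51 ± 0.16, 0.0217) was lost without either 24 h library (0.0806 and 0.0797) or the first 72 h library (0.142). HERC5 (0.48 ± 0.12, 0.00849) was lost without the first 24 h library (0.0598) or the second 72 h library (0.059). On the TPM as deposited HERC5, OAS3, PARP9 and UBE2L6 were not called.

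Genes of the pathway outside the 40 were taken from lists of receptors and kinases, sensors, negative regulators and other interferon-induced genes. Their counts at 72 h are to be read against 25.8% of all genes higher and 26.2% lower, and, on the TPM as deposited, 10.5% and 31.2%. Of 11 receptor and kinase genes tested 5 were higher (45.5%) and 1 was lower (9.09%). Among the higher ones were STAT3 (0.43 ± 0.08, adjusted p = 0.00203), IL10RB, a chain of the type III interferon receptor (0.41 ± 0.08, 0.00225), and its partner IFNLR1 (1.01 and 0.74 TPM at 0 h, 1.87 and 1.23 at 72 h, 0.55 ± 0.14, 0.00869). On the TPM as deposited 1 of these 11 was higher and 1 lower. IFNLR1 was the higher one (limma adjusted p = 0.0328), and STAT3 and IL10RB were not called (0.261 and 0.307).

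Of 15 nucleic acid sensing genes tested, 3 were higher at 72 h (20%) and 5 lower (33.3%), shares near those of all genes, and 0 and 5 as deposited. TRIM25, the ubiquitin ligase that activates RIG-I, had 48.8 and 49.8 TPM in the 0 h pair, 44.3 and 41.4 in the 24 h pair, 39.2 and 37.6 in the 48 h pair and 27.9 and 23.6 in the 72 h pair. Both 72 h libraries were the lowest of the 8, and the log2 changes were -0.34 ± 0.06 (48 h, adjusted p = 0.0044) and -0.70 ± 0.06 (72 h, 1.69e-05). On the TPM as deposited the 72 h call of TRIM25 was made and the 48 h call was not. IKBKE, which encodes a kinase that phosphorylates IRF3, had 6.04 and 5.88 TPM in the 0 h pair, 4.32 and 4.56 in the 24 h pair, 4.13 and 4.11 in the 48 h pair and 2.88 and 2.33 in the 72 h pair. Its change was -0.78 ± 0.09 (adjusted p = 9.86e-05). DDX58, which encodes RIG-I, was at 0.61 to 1.05 TPM and not called. DICER1 was the only one of the 15 called at 24 h (-0.39 ± 0.07, limma adjusted p = 0.0366), and not on the TPM as deposited. TLR7, TLR8 and TLR9, the endosomal sensors of nucleic acid, did not pass 0.21 TPM. TLR3 did not pass 0.83 TPM. Of 11 negative regulators tested 7 were higher (63.6%, beside 25.8% of all genes) and 2 lower (18.2%, beside 26.2%). As deposited 1 was higher and 3 lower. After scaling TRIM24 (0.52 ± 0.07, adjusted p = 0.000167) and PIAS1, an inhibitor of STAT signalling (0.61 ± 0.10, 0.000573), were among the higher ones and PTPN2, a phosphatase of JAK1, among the lower ones (-0.36 ± 0.06, 0.00116).

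Of 40 other interferon-induced genes tested, 17 were higher at 72 h (42.5%, beside 25.8% of all genes) and 8 lower (20%, beside 26.2%). As deposited 9 were higher and 9 lower, where 10.5% and 31.2% of all genes were. B2M, the light chain of MHC class I, had 159 and 161 TPM in the 0 h pair, 178 and 174 in the 24 h pair, 235 and 235 in the 48 h pair and 311 and 227 in the 72 h pair. It was the only gene of this list called at 24 h (0.24 ± 0.04, limma adjusted p = 0.0427). That 24 h call was not made on the TPM as deposited. At 72 h the change of B2M reached 0.95 ± 0.04 (3.29e-07). SHISA5 changed by 0.94 ± 0.08 (adjusted p = 1.06e-05), while LY6E (-0.59 ± 0.06, 4.11e-05), TMEM140 (-0.76 ± 0.08, 6.34e-05) and IFI30, a lysosomal thiol reductase (-0.48 ± 0.06, 0.000112), were lower. MOV10, an RNA helicase, was higher (0.89 ± 0.11, 0.000152). Each of these 4 lists held genes called in both directions at 72 h.

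Markers of other cell types were read beside the 72 h changes. The sum of the 8 leukocyte markers was 5.03 to 6.53 TPM at 0 h, 6.66 to 6.91 at 24 h, 11 to 14.9 at 48 h and 27.9 to 30.8 at 72 h. Of these 8, 2 were tested and both were higher at 72 h, the lysosomal gene CD68 (3.55 and 2.15 TPM at 0 h, 21.8 and 19.2 at 72 h) and LYZ, which encodes lysozyme (1.98 and 2.16 TPM at 0 h, 7.94 and 7.22 at 72 h). The defining markers PTPRC, CD3E and HLA-DRA did not pass 0.63 TPM in any library, and CD3E was at 0 in 2 of the 8. The 5 fibroblast markers summed to 1.87 to 3.42 TPM in the control and 6.5 to 7.23 at 72 h, with COL1A1 and COL3A1 tested and higher. The 3 endothelial and 3 plasmacytoid dendritic cell markers summed to at most 0.59 and 0.49 TPM in a library. The part of these values in the changes of the interferon genes was not tested.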

How the data were processed

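RNA-seq of 8 SW480 libraries was deposited as 1 table. Its values are TPM (length-normalised transcript shares), given by the authors per the file headers. The submitters' processing notes name RSEM, FastQC, Trimmomatic, STAR, SAMtools, Picard and the hg19 build; versions, annotation and strand setting are not given in the sources used, so reads of overlapping or antisense genes and of near-identical copies such as the IFITM genes may be mixed. TPM keep no read depth. Values were divided by median-ratio factors (0.804 for the second 72 h library, 0.987 to 1.07 for the others) and tested as log2(scaled TPM + 1) in genes at 1 TPM or more in at least 2 libraries. One limma 3.58.1 fit (R 4.3.3, empirical Bayes with a mean-variance trend, 4 residual degrees of freedom) covered all 4 groups, and a threshold of 0.05 was set on Benjamini-Hochberg adjusted p. Scaling was made the main setting because the fit to the TPM as deposited estimated no variation of the spread between genes (an infinite prior degrees of freedom, 5.41 after scaling) and a median SE of 0.162 against 0.0912. The procedure was tested on simulated data in which a small share of the genes changed, as many up as down. The scaling was therefore not tested for changes as wide as those at 72 h.

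The members and lists were chosen with earlier results of these data known. All 40 genes are named: tested ones called in any comparison with every library's value, other tested ones by value, the rest by their highest value. From other lists up to 6 called genes with the smallest p at 72 h are given; genes named beyond these were chosen after their values were seen, and some genes of these lists are not reported here. Of the other lists, IFNL4 and the symbols for cGAS and STING were not analysed here. Replicate correlation across kept genes was 0.992 to 0.996 within groups. Alternatives covered the pseudocount (0.1 and 5), the filter (none, and 5 TPM), scaling, the trend, robust estimation, the groups in the fit, a replicate block and leaving out each library. Promoter letters came from RefSeq (GRCh38.p14) and were matched by symbol.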

Additional observations from a re-analysis of the deposited data

Results flagged for a closer look

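For 15 of the 28 tested interferon genes (53.6%) the change against 0 h differed between 72 h and 24 h. The criterion was an adjusted p under 0.05 in limma's contrast of these groups, over 11894 genes of which 50.1% passed. It is the comparison of 72 h with 24 h given above, where calls that were lost without single libraries are named. The later change exceeded the earlier one in 13 (46.4%), where 24.9% of all genes were higher. The difference in log2 change was 1.13 in ISG20 (adjusted p = 9.7e-07), 1.00 in OAS1 (0.00229), 0.86 in IRF9 (0.000155), 0.69 in IFITM3 (0.000584), 0.65 in IFIT3 (0.00113), 0.64 in PARP14 (0.00108) and 0.61 in STAT2 (0.000321). It was 0.58 in SAMD9 (0.000576), 0.51 in MX1 (0.0217), 0.48 in HERC5 (0.00849), 0.48 in UBE2L6 (0.0156), 0.44 in PARP9 (0.00644) and 0.36 in OAS3 (0.0489). The 2 genes with the opposite sign were IRF1 at -0.42 (0.00192) and IFITM2 at -0.30 (0.0109).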

How the results depend on the processing

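No interferon gene was called at 24 h under any alternative run, and no call of an interferon gene changed sign. The number of all genes called at 24 h (129) was 15 with no filter, 212 with a minimum of 5 TPM, 55 on the TPM as deposited, 20 without the mean-variance trend and 4 to 296 with 1 library left out. At 48 h the 2797 genes became 922 as deposited and 1358 to 3147 with 1 library left out. The 7 interferon genes called at 48 h became 4 with no filter, 4 with a minimum of 5 TPM, 3 as deposited, 4 with equal sums over listed genes and 1 to 8 with 1 library left out. The 15 called at 72 h became 6 with a minimum of 5 TPM, which leaves fewer genes to test, 9 as deposited, and 11 to 15 with 1 library left out. For 72 h against 24 h the 15 became 8 with a minimum of 5 TPM and 10 to 14 with 1 library left out. The causes were otherwise not tested. At 72 h the calls of ADAR, HERC5, HERC6, MX1 and OAS3 were also lost with quantile normalization, and those of HERC6, MX1 and OAS3 with no filter. Alternatives were run on the tested interferon genes and TCF7L2. Single genes of other lists were fitted also on the TPM as deposited, and in no other alternative. The 12 genes under the filter were fitted singly with no filter only. An alternative chosen after seeing the data, the TPM as deposited without the second 72 h library, gave 738 genes at 24 h. All-gene counts at 72 h stayed between 4919 and 6041 with 1 library left out, and between 4614 and 5798 against 24 h. Where an arm was left with 1 library, it was assumed to vary like the other groups.

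The share of calls that were higher depended on the scaling. At 24 h it was 59.7% and became 45.5% as deposited, 49.1% with quantile normalization and 33.5% with equal sums; at 48 h, 51.1% and 33.4% with equal sums; and against 24 h, 49.8% and 35.9% as deposited.

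The replicate numbers are shared across groups, and the labels do not say what they mark. Deviations of same-numbered libraries correlated at -0.09 to 0.11 over the 6 pairs of groups. With the replicate block, 91, 2707 and 6141 genes were called at 24, 48 and 72 h, with 0, 5 and 15 interferon genes among them, and 5873 genes with 16 interferon genes for 72 h against 24 h, where USP18 was added (0.0405).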
